A study of Mus musculus with 6 samples.

Results

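Promoters that were accessible in every library but ranked lower in mice after high-altitude de-acclimatization (HADA) were examined by ATAC-seq, which inserts sequencing adapters into open DNA with the Tn5 transposase. Peaks of the 6 libraries on chromosomes 1 to 19 were merged where they shared 1 bp, which gave 60298 regions, and 23013 regions held a peak in all 6 libraries. Of these, 10109 had a summit within 1 kb of a protein-coding transcript start and are called shared promoters. Each promoter was given its percentile among all peaks of the same library, ordered by the −log10 p-value of its strongest peak. A promoter was called weaker in HADA where the highest of the 3 HADA percentiles lay at least 5 points below the lowest of the 3 control percentiles. This held for 264 of 10109 shared promoters (2.61%), which lay at 264 protein-coding genes, since 11 regions served 2 genes and 11 genes had 2 regions. The HADA and control percentiles chose these promoters, so every value of that contrast at them is given as a description and no test was made.

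The cells were leukocytes left after lysis of red cells in peripheral blood, so each library was a mixture of cell types. The HADA mice, young adult C57BL/6J males per the study's methods, had lived for several weeks in a hypobaric chamber at a simulated high altitude and had then been returned to normoxia. Control mice were kept in normoxia throughout. The time of blood collection for this assay and the number of mice behind a library were not given in the sources used here, so the spread between the 3 libraries of a group may be technical. The study's text also calls the cells mononuclear, a preparation that would hold few neutrophils.

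A promoter is the stretch of DNA at a transcript start where general factors and RNA polymerase assemble, and in cells that use it the nucleosomes are displaced so that Tn5 can enter. Promoters of widely used genes mostly lie in CpG islands, stretches rich in the CpG dinucleotide, whereas many promoters used by neutrophils and monocytes are poor in CpG and depend on lineage factors such as PU.1 and C/EBP. AP-1, a dimer of FOS and JUN family proteins, binds many enhancers and promoters that respond to stimulation of myeloid cells. In a bulk sample, fewer cells of a type and less accessibility per cell cannot be told apart.

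Stretches of 120 bases from 8 of the weaker promoters are shown because matches to the C/EBP or AP-1 consensus were among the sequence features in which the set differed from the other shared promoters. They were read from GRCm39 outside annotated exons and are written 5′ to 3′ on the strand of the gene, with the match in capitals. The letters searched on both strands were TTGCNNAA for C/EBP and TGANTCA for AP-1, and a match describes the letters only. The 4 stretches with a C/EBP match came from Hal (chr10:93324478-93324597, plus strand), Retreg1 (chr15:25940665-25940784, plus strand), Clec4a1 (chr6:122898448-122898567, plus strand) and Hcar2 (chr5:124003604-124003723, minus strand). That of Hcar2, the nicotinic acid receptor, held 2 matches.
Hal: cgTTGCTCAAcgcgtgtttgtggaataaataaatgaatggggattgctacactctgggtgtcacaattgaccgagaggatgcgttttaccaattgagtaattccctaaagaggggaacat
Retreg1: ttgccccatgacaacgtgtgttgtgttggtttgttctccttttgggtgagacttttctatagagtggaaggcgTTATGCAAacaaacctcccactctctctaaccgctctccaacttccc
Clec4a1: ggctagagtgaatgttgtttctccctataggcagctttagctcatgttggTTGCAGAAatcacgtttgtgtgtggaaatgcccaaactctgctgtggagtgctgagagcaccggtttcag
Hcar2: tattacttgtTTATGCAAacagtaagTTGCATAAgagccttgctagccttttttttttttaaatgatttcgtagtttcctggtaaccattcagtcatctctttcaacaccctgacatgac
The 4 stretches with an AP-1 match came from Cd68 (chr11:69557068-69557187, minus strand), Cfap54 (chr10:92919395-92919514, minus strand), Gcnt1 (chr19:17312447-17312566, minus strand) and St3gal4 (chr9:34967239-34967358, minus strand). The Gcnt1 stretch lay in an intron just downstream of its start, and the others lay upstream of theirs.
Cd68: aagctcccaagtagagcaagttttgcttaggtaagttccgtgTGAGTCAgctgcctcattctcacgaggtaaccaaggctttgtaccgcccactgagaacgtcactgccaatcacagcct
Cfap54: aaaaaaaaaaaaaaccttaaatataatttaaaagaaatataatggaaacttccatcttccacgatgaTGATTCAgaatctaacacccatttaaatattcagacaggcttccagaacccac
Gcnt1: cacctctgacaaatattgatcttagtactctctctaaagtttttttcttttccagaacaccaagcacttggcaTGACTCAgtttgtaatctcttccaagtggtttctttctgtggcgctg
St3gal4: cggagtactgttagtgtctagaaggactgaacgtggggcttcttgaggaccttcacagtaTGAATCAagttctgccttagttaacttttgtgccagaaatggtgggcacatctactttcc

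The weaker promoters ranked in the upper part of the lists in control libraries and near the middle in HADA libraries. Their median percentile was 74.7, 75.4 and 80.9 in control 1, 2 and 3 and 59.6, 52.2 and 52.3 in HADA 1, 2 and 3, while that of all shared promoters was 83.4, 80.6 and 76.8 in control and 85.5, 85.3 and 85.9 in HADA. The median promoter in the set thus stood 21.2 points lower in HADA than in control, against 4.33 points higher for all shared promoters. Peaks at these promoters were also lower by height: the summit pileup, the number of fragments over the summit as solved from the fold and p-value of the peak, had a median of 90.5, 83 and 142.5 in control and of 70, 48 and 47 in HADA libraries. Over all shared promoters these medians ran from 90 to 108 in control libraries and from 153 to 185 in HADA libraries, so the set went against the general direction of the raw heights.

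To set the libraries on 1 scale, the log2 pileup was centred on the median region with a peak in all 6 libraries. On this scale the 264 promoters differed by a median of −1.51 (HADA minus control, range −2.57 to −0.50), against 0.11 for all shared promoters. A difference of −1 or lower was found at 231 of them (87.5%) and at 3.60% of all shared promoters, and 49 differed by −2 or lower. The centred pileups of the groups did not overlap at any of the 264, where 16.3% of all shared promoters were apart with HADA lower, and the uncentred pileups did not overlap at 191 of 264, where the share over all was 2.05%. Without the 5-point limit, the percentiles of the groups did not overlap at 8.44% of all shared promoters with HADA lower and at 50.1% with HADA higher, and the centred pileups were apart at 36.2% with HADA higher. Because these heights come from the peaks that chose the set, nothing is read from those counts. Control 3 stood apart from the other control libraries, with a median centred height at these promoters of 2.85 times the median region, against 1.53 in control 1 and 1.51 in control 2. The HADA libraries were at 0.745, 0.608 and 0.566. When control 3 was left out of the choice and of the values, 299 promoters were chosen and their median log2 difference was −1.23.

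The number of weaker promoters depended on the scale more than on any library. In the other direction, 1588 shared promoters (15.7%) had a lowest HADA percentile at least 5 points above the highest control percentile. Percentiles taken among the shared promoters alone, which removes the rise of promoters as a class in HADA, gave 985 weaker (9.74%) and 959 stronger promoters (9.49%), and 252 of the 264 were among the 985. Percentiles of the fold enrichment gave 271 weaker promoters (2.68%), of which 109 were among the 264. The fold divides the summit by its local background, and that background had a median of 11.1, 9.70 and 14.7 fragments at the 264 promoters in control and 9.30, 6.09 and 6.53 in HADA, while it was 9.12, 8.04 and 7.48 in control and 14.8, 12.5 and 13.4 in HADA over all shared promoters. Summit and background were therefore both lower in HADA at these promoters. By fold, 230 of the 264 still had a lower mean percentile in HADA, and the groups did not overlap at 163, where 9.40% of all shared promoters were apart with HADA lower.

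**Figure D1:**
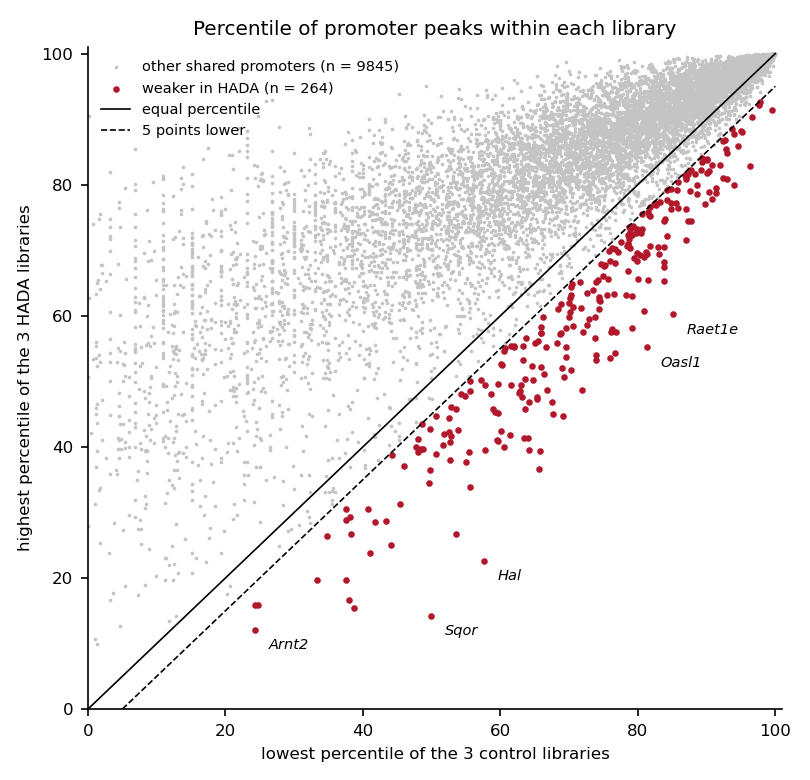
Each point is a shared promoter, plotted by the lowest percentile of its peak in the 3 control libraries (x axis, 0 to 100) against the highest in the 3 HADA libraries (y axis, 0 to 100), with lines for equal percentiles and for 5 points lower in HADA. The 264 weaker promoters (red) lie under the dashed line by definition and reach a gap of 35.6 points at Sqor. Most other shared promoters (grey) lie above the line of equality. Plotting a lowest against a highest value puts most points there even without a group difference.

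The gap between the groups ranged from 5.01 to 35.6 points with a median of 10.0, and it was at least 10 points at 133 promoters, at least 20 at 23 and at least 30 at 2. The members just inside the limit were Nlrx1 (5.01 points), Cgas (5.04) and Baz2b (5.08), and those just outside were Arpc3 (4.98), Itpripl2 (4.95) and Arrdc4 (4.91). The limit was thus passed by small steps, and it marks no separate class of promoters. By the percentile, the lowest control library was control 1 at 111 promoters, control 2 at 122 and control 3 at 31, and the highest HADA library was HADA 1 at 174, HADA 2 at 39 and HADA 3 at 51.

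The largest gap was at an internal start of Sqor, which encodes the mitochondrial enzyme that oxidizes hydrogen sulfide. Its peak stood at the 61.8, 49.9 and 53.8 percentiles in control 1, 2 and 3 and at 14.3, 12.9 and 12.1 in HADA 1, 2 and 3, with summit pileups of 35, 25 and 35 against 14, 12 and 12 fragments, a log2 difference of −1.95 ± 0.18 (SE, n = 3 each, as for all log2 differences of single promoters). The peak at the canonical start of the same gene was a member too, at 82.9, 80.9 and 80.9 in control and 68.9, 63.6 and 65.2 in HADA. Hal, which encodes histidine ammonia-lyase, the first enzyme of histidine breakdown, followed with percentiles of 57.9, 60.6 and 57.6 in control and 3.54, 22.6 and 10.7 in HADA. It had pileups of 38, 38 and 43 against 12, 17 and 13. Both top promoters thus ranked near the middle of the control lists, and in HADA they had few fragments, near the lower end of what was called.

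Several of the other large gaps were at taller peaks. Oasl1, an interferon-induced gene of the oligoadenylate synthetase family, had pileups of 139, 136 and 443 in control and 99, 67 and 81 in HADA, and percentiles of 81.3, 84.0 and 96.4 against 55.2, 43.2 and 53.5. Control 3 was far above the other libraries there. Clec4e, which encodes the C-type lectin Mincle, a sensor of mycobacterial glycolipid, stood at 82.3, 76.7 and 82.4 in control and 52.1, 47.4 and 54.3 in HADA, with a log2 difference of −2.41 ± 0.33. Cd80, a ligand of the costimulatory receptor CD28, stood at 67.9, 65.7 and 69.6 against 39.4, 31.1 and 37.0 (log2 difference −1.50 ± 0.31). The rule left no overlap of the groups at these promoters, and they were named for their large gaps, so nothing is read from that separation.

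The lowest log2 difference of the set was at an internal start of Raet1e, a ligand of the activating receptor NKG2D. It had pileups of 114, 117 and 241 in control against 56, 37 and 28 in HADA, a difference of −2.57 ± 0.48. The 50 bases at its summit occur at 2 places in the genome, so some of its reads may not have been placed with certainty, which was not examined. The 15 largest gaps also included 2 enzyme genes, Gda, the guanine deaminase, at −2.50 ± 0.45 and Gcnt1, a branching enzyme of the glycans that carry selectin ligands, at −2.37 ± 0.48. The other promoters among the 15 largest gaps were those of Cfap54, Fam20c (a kinase of secreted proteins), Plcd1 (a phospholipase C), Arhgap23, Pik3r6 (a regulatory subunit of a phosphoinositide kinase), Mctp1 and Plek, which encodes pleckstrin, a kinase C substrate of platelets and leukocytes. Their log2 differences ran from −2.42 ± 0.52 at Cfap54 to −1.15 ± 0.19 at Pik3r6.

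**Figure D2:**
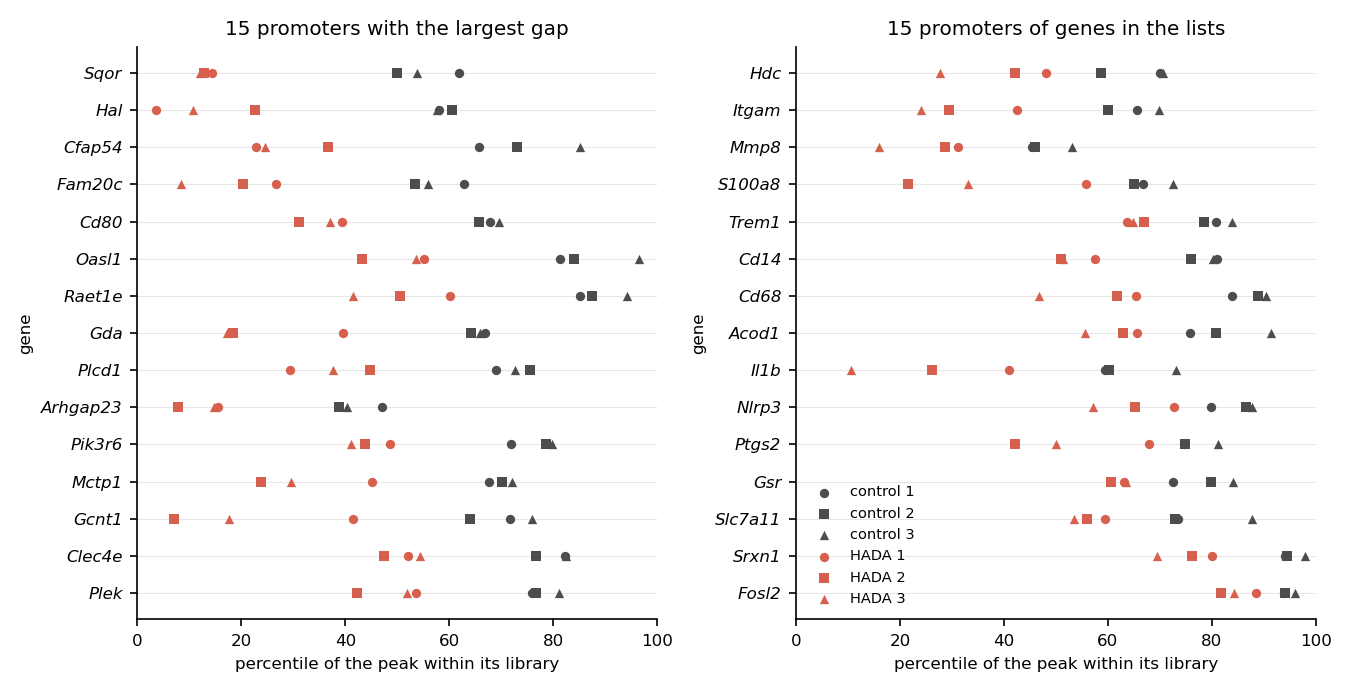
Percentile of the peak within its own library (x axis, 0 to 100) in each control library (dark) and HADA library (orange), for the 15 promoters with the largest gap (left) and the 15 weaker promoters whose gene is in a list (right). No row has overlapping groups, by the rule, and the distance between groups is widest at Sqor and Hal on the left and narrowest at Fosl2 on the right.

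The part of the set at known genes was read from 16 gene lists. The lists were also counted on other scales, and the shares of weaker and stronger promoters over all were 2.61% and 15.7% by the rule, 2.68% and 11.8% by percentiles of the fold, 3.21% and 17.0% by those of the pileup and 9.74% and 9.49% by percentiles among shared promoters. Among the 9 shared promoters of neutrophil genes, 5 were weaker, 0 were stronger and 4 were neither, and all 9 had a negative log2 difference with a median of −1.76, against 0.11 for all shared promoters. Of the 9, 1 was weaker by the fold, 8 by the pileup and 6 among shared promoters, and 0 were stronger on any of these scales. The 5 were S100a8, a subunit of calprotectin, Hdc, the histidine decarboxylase that makes histamine, Itgam, the CD11b integrin chain, Mmp8, the neutrophil collagenase, and Trem1, an activating receptor of neutrophils and monocytes. S100a8 stood at 66.7, 65.1 and 72.6 in control and 55.8, 21.5 and 33.1 in HADA, a log2 difference of −2.33 ± 0.59. Here HADA 1 kept a higher peak than the other HADA libraries, with a pileup of 59 against 19 and 24, and control pileups were 82, 70 and 157. The region of Itgam also lay at a start of the predicted gene Gm49368, and its log2 difference was −1.76 ± 0.40.

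Trem1 kept the tallest peaks of the 5, with pileups of 231, 191 and 387 in control and 144, 102 and 96 in HADA (log2 difference −1.84 ± 0.38). Those of Mmp8 were the smallest, with 25, 24 and 37 against 20, 17 and 13 fragments, so its difference of −1.42 ± 0.30 rested on few fragments. The 4 neutrophil promoters outside the set were Cxcr2, Il1r2, Csf3r and Padi4, with log2 differences of −1.87, −1.50, −1.46 and −0.75, and the gap in percentile was 1.95, 1.83 and 0.64 points for the first 3 while the groups overlapped at Padi4. Over the 22 listed genes, the summed centred height of promoter peaks was 20.1, 18.2 and 43.7 in control and 9.24, 7.18 and 5.36 in HADA, and Ly6g, Camp, Ngp and Elane had no promoter peak in any library. The part of neutrophil number in the results was not tested.

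Among monocyte and macrophage genes, 2 of 13 shared promoters were weaker, 0 were stronger and the median log2 difference was −0.93, and weaker and stronger counts were 2 and 2 by the fold, 3 and 1 by the pileup and 4 and 0 among shared promoters. The 2 members were those of Cd14, the coreceptor for bacterial lipopolysaccharide, and Cd68, a lysosomal glycoprotein of phagocytes. Cd14 stood at 80.9, 76.1 and 80.3 in control and 57.5, 51.1 and 51.4 in HADA (log2 difference −1.93 ± 0.27), and Cd68 at 83.9, 88.8 and 90.4 against 65.3, 61.8 and 46.7 (−1.50 ± 0.30). Other members of the list went the other way on the same scale: the log2 difference was 0.72 at Irf8, a factor of monocyte and B cell development, and 0.30 at Klf4. The summed height over the 19 genes was 22.4, 22.0 and 27.6 in control and 16.5, 14.6 and 13.8 in HADA, with no promoter peak at Ccr2 and Mpeg1.

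No promoter of a lymphocyte list was weaker by the rule, which in lists of this size lies near the 2.61% over all shared promoters. Of 8 B cell promoters 7 were stronger in HADA and the median log2 difference was 1.49, and of 16 T cell promoters 5 were stronger with a median of 0.51, where 15.7% of all shared promoters were stronger. The number of stronger B cell promoters was 0 by the fold, 7 by the pileup and 5 among shared promoters, and that of T cell promoters was 2, 5 and 3, with 0 weaker in either list. Summed heights of B cell genes lay between 11.7 and 18.1 in control and between 29.9 and 31.7 in HADA, so they moved with the weaker set in the opposite direction, and those of T cell genes lay between 14.5 and 16.2 in control and between 19.9 and 20.7 in HADA. Regulatory T cell genes had 9 shared promoters, of which 0 were weaker and 2 stronger, and these counts were 1 and 1 by the fold, 0 and 3 by the pileup and 1 and 0 among shared promoters. Of 5 NK cell promoters 0 were weaker and 1 was stronger. The single shared promoters of the eosinophil and basophil list and of the erythroid and platelet list were neither by the rule and by the fold. Both were weaker by the pileup and among shared promoters. The part of these cells in the results was not tested.

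Inflammatory genes contributed 4 of 26 shared promoters, 2 of the 26 were stronger, and the median log2 difference was −0.52. The balance depended on the scale, with 1 weaker and 6 stronger by the fold, 8 and 2 by the pileup and 11 and 0 among shared promoters. Il1b, which encodes the cytokine interleukin-1 beta, had pileups of 158, 153 and 377 in control and 102, 57 and 42 in HADA, at percentiles of 59.5, 60.3 and 73.0 against 41.0, 26.1 and 10.6 (log2 difference −2.38 ± 0.58). Nlrp3, the sensor of the inflammasome that matures that cytokine, stood at 79.8, 86.5 and 87.8 against 72.7, 65.3 and 57.2. Acod1, which makes itaconate, differed by −2.27 ± 0.58 and Ptgs2, the inducible cyclooxygenase, by −1.85 ± 0.50. At all 4 the highest library was control 3. The list also held promoters with no such difference, such as Nfkb1, a subunit of NF-kB, at 0.16 and 0.22 for its 2 regions. The study names Il1b and Ccr1 among genes with raised accessibility in HADA, the opposite of the direction at these promoters. Ccr1 differed by −1.61 and was not weaker by the rule. Which regions of a gene the study counted is not stated, so its measure may cover others.

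NRF2, encoded by Nfe2l2, is the factor that switches on antioxidant genes. The study proposes that it mediates the response of regulatory T cells to HADA. That view drew on RNA and an agonist assay in those cells and on motif prediction. The libraries here were mixed leukocytes, so the counts below do not measure regulatory T cells. Of 17 shared promoters of the list of NRF2 and its target genes, 3 were weaker, 1 was stronger and the median log2 difference was −0.45. By the fold, 0 of the 17 were weaker and 1 was stronger, so none of the 3 calls held on that scale, while 4 were weaker by the pileup and 6 among shared promoters, each with 1 stronger. Srxn1, a sulfiredoxin, stood at 94.0, 94.4 and 97.9 in control and 80.0, 76.1 and 69.5 in HADA (log2 difference −2.25 ± 0.45). Slc7a11, the cystine transporter, differed by −1.96 ± 0.58 and Gsr, the glutathione reductase, by −1.41 ± 0.37. The promoter of Nfe2l2 itself was not among the weaker ones, with a difference of −0.45 and overlapping percentiles, and Cat, the catalase gene, differed by 0.65 in the other direction. Of the other lists, immediate early and AP-1 genes held 1 weaker promoter of 25, that of the AP-1 subunit gene Fosl2 (−1.38 ± 0.35), with 0 stronger, and 1 and 4 by the fold, 1 and 0 by the pileup and 5 and 0 among shared promoters. Interferon-stimulated, hypoxia and glycolysis, ribosomal protein, housekeeping and antigen presentation genes held 0 weaker promoters of 18, 29, 24, 18 and 16, near the 2.61% over all for lists of this size, and 2, 2, 0, 0 and 5 stronger ones. By the fold these lists held 0, 0, 2, 0 and 1 weaker and 2, 3, 1, 2 and 0 stronger promoters. By the pileup they held 0 weaker and 2, 2, 0, 0 and 6 stronger ones. Among shared promoters they held 4, 2, 3, 2 and 2 weaker ones, against 9.74% over all, and 1, 2, 0, 0 and 5 stronger ones. Over all lists, 15 of 228 regions were weaker and 27 were stronger.

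**Figure D3:**
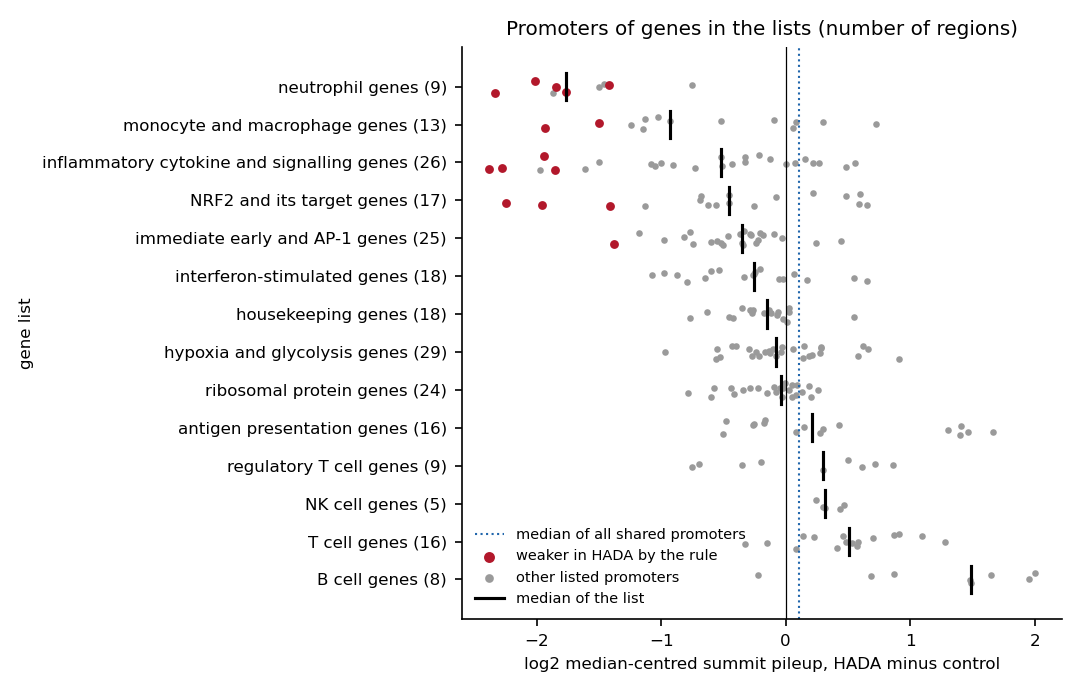
Log2 difference in median-centred summit pileup (x axis, HADA minus control) for the shared promoters of each gene list with at least 5 of them (rows, ordered by median, number of regions in parentheses). Weaker promoters (red) occur in the neutrophil, monocyte, inflammatory, NRF2 and immediate early lists, B cell genes lie furthest right with a median of 1.49, and the dotted line marks the median of all shared promoters, 0.11.

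Further members were described by gene family. The families were grouped by gene symbol after the values were seen, so their counts are a description, and over all shared promoters 2.61% were weaker and 15.7% stronger. Of 23 shared promoters of paired immunoglobulin-like receptors, 14 were weaker and 1 was stronger, with a median log2 difference of −1.71. They included Sirpa, the receptor for CD47, at −1.71 ± 0.39, Lilrb4b at −2.21 ± 0.49, and Lair1, Cd33 and several Cd300 genes. Of 19 promoters of chemoattractant and metabolite receptors 9 were weaker and 1 was stronger, and the weaker ones included those of Fpr1, the formyl peptide receptor, at −2.16 ± 0.46, C5ar1, the receptor for complement C5a, at −1.91 ± 0.43, and Hcar2 at −2.23 ± 0.61. Of 9 promoters of C-type lectin receptors 1 was stronger and 4 were weaker (Clec4a1, Clec4a2, Clec4e and Clec7a, the beta-glucan receptor Dectin-1). Of 15 promoters of NOD-like receptors 2 were stronger and 6 were weaker (Nlrp1a, Nlrp1b, Nlrp3, Nlrp12, Nlrx1 and Nod2). Of 4 promoters of Fc receptor genes 2 were weaker and 1 was stronger. Fcer1g, the signalling chain of these receptors, stood at 83.0, 80.9 and 85.5 in control and 60.8, 54.6 and 48.1 in HADA.

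Antiviral and lipid mediator genes formed smaller groups. Of 9 promoters of OAS and IFITM genes 5 were weaker and 0 stronger: besides Oasl1, these were Oasl2 (−1.39 ± 0.59), Ifitm1 (−1.75 ± 0.28), Ifitm6 (−1.93 ± 0.29) and Ifitm2, whose region also served Gm45717 (−1.61 ± 0.42). Of 12 promoters of eicosanoid genes 3 were weaker, those of Ptgs2, of the prostaglandin receptor gene Ptger2 (−0.93 ± 0.23) and of Alox5, the lipoxygenase that starts leukotriene synthesis. Alox5 had percentiles of 53.1, 44.2 and 63.1 in control against 33.2, 38.7 and 24.7 in HADA, a log2 difference of −1.84 ± 0.45. Groups of receptors used by lymphocytes as well were split, with 4 of 13 promoters of TNF receptor superfamily genes weaker and 4 stronger, and 3 of 23 promoters of interleukin receptors weaker and 5 stronger. The weaker ones of the former included Tnfrsf1a, the main receptor for TNF, at 80.0, 79.8 and 84.7 in control against 68.4, 59.6 and 54.4 in HADA. Tlr5, the flagellin receptor, was the weaker one of 8 Toll-like receptor promoters (−1.45 ± 0.31), of which 2 were stronger.

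Further members, picked here for their known roles after values were seen, encode secreted proteins, transporters and regulators. Hp, which encodes haptoglobin, the hemoglobin scavenger, stood at 74.5, 68.3 and 84.8 in control and 55.8, 52.5 and 38.6 in HADA (−2.05 ± 0.50). Slc11a1, the metal ion transporter of phagosomes, stood at 89.8, 92.4 and 93.5 in control and 77.0, 65.2 and 57.7 in HADA (−2.16 ± 0.46), and it was 1 of 8 weaker promoters among 196 of solute carrier genes, of which 34 were stronger. The solute carrier counts were 8 weaker and 26 stronger by the fold, 10 and 38 by the pileup and 25 and 26 among shared promoters. Fut7, the fucosyltransferase that completes selectin ligands, differed by −1.36 ± 0.34, and the 2 member regions of the sialyltransferase gene St3gal4 by −1.64 ± 0.14 and −1.31 ± 0.18, while its canonical start differed by −0.05. Among regulators of transcription, Nfil3 differed by −1.34 ± 0.27, Bcl3 by −1.25 ± 0.30, Id1 by −1.10 ± 0.16 and Mafg, a small Maf partner of NRF2, by −1.19 ± 0.30. The smallest differences of the set were at Zhx2 and Bicra with −0.50 each and at Ikzf1, the lymphoid factor Ikaros, with −0.52 ± 0.24, where the percentiles were 82.6, 83.4 and 88.8 in control against 74.1, 76.9 and 76.7 in HADA. By percentile of the fold, 2 of 9 OAS and IFITM, 1 of 12 eicosanoid and 0 of 13 TNF receptor promoters were weaker, and these counts were 5, 3 and 4 by the pileup and 4, 5 and 4 among shared promoters.

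Among genes with housekeeping roles, 0 of 86 promoters of respiratory chain genes, 0 of 85 of cytosolic ribosomal proteins and 0 of 39 of proteasome subunits were weaker. These counts lie near the 2.61% over all shared promoters, and they were 0, 3 and 1 by percentiles of the fold and 0 in each by the pileup. Among shared promoters they were 6, 10 and 7, against 9.74% over all. Stronger promoters of these 3 families numbered 6, 2 and 1 by the rule, where the share over all was 15.7%. They numbered 6, 3 and 2 by the fold, 8, 1 and 1 by the pileup and 5, 1 and 0 among shared promoters. Of 300 promoters of Zfp genes, which encode zinc finger proteins, 1 was weaker and 64 were stronger, where the shares over all were 2.61% and 15.7%. For these promoters the counts were 3 and 41 by the fold, 1 and 79 by the pileup and 17 and 38 among shared promoters. The counts of receptor families depended on the scale. By percentiles of the fold, 1 of the 23 immunoglobulin-like, 1 of the 7 TREM, 3 of the 19 chemoattractant, 1 of the 9 C-type lectin, 3 of the 15 NOD-like, 1 of the 4 Fc, 1 of the 8 Toll-like and 1 of the 23 interleukin receptor promoters were weaker, against 2.68% of all shared promoters. By percentiles of the pileup the same counts were 17, 5, 13, 4, 7, 2, 2 and 5, against 3.21%. Among shared promoters they were 19, 6, 11, 4, 8, 3, 2 and 7, against 9.74%.

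Some members were neighbours. Runs of at least 3 members within 100 kb of each other were found at 3 places. On chromosome 17 (48452711 to 48571527), the promoters of Trem5, Trem4, Trem1, Trem3 and Treml4, all encoding receptors of the TREM family, were weaker, and no other shared promoter lay among them. Of 7 TREM promoters in all, 5 were weaker and 1 was stronger. The log2 differences of the 5 ran from −2.33 to −1.73. Trem5 had the smallest peaks, with pileups of 40, 27 and 67 in control and 15, 13 and 11 in HADA, and at Trem3 HADA 1 kept a pileup of 166 against 75 and 79 in the other HADA libraries. On chromosome 11 (114780820 to 114895460), Cd300a, Cd300ld and Cd300c2 were 3 of 4 shared promoters, and on chromosome 7 (140533586 to 140597663) Ifitm1, Ifitm6 and the predicted gene Gm45717 were 3 of 3. Ifitm genes encode membrane proteins that restrict the entry of viruses.

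The members with the highest control percentiles showed that strong promoters were also among them. Noc2l, which encodes an inhibitor of histone acetyltransferases, stood at 99.6, 99.6 and 99.9 in control and 91.5, 82.1 and 83.4 in HADA, with pileups of 542, 471 and 878 against 322, 164 and 175. Its peak lay in an intron, and the 50 bases at its summit occur at 3 places in the genome. Stk40, a kinase-like gene, stood at 98.5, 97.7 and 99.6 against 91.9, 92.2 and 92.0, with a log2 difference of −1.30 ± 0.39. Rhbdf2, which encodes the rhomboid protein that carries the sheddase of TNF to the cell surface, and Slc15a3, a lysosomal peptide transporter, both differed by −1.33. Dop1b, where the peak lay in an intron, stood at 96.8, 96.4 and 99.2 in control against 82.8, 76.0 and 72.0 in HADA, with a log2 difference of −2.10 ± 0.45. The 50 bases at its summit occur at 6 places in the genome, so its height may be uncertain.

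Weaker promoters lay at alternative starts more often than other promoters by count. Of the 264, 79 (29.9%) had no canonical transcript start within 1 kb, against 9.61% of all shared promoters and 13.9% of the stronger ones. The summit fell in an intron at 34.8% and in an exon at 43.9%, against 14.6% and 70.5% over all shared promoters, and 4.17% against 12.6% served 2 genes. Of the 79, 52 lay downstream of the canonical start and 27 upstream, and the canonical start of the same gene was itself accessible in all 6 libraries for 54. Over all 79, the median distance between the starts was 11149 bases. At the 54 the median log2 difference was −1.55 at the member and −0.37 at the canonical start. The canonical promoter was weaker by the same rule in 7, stronger in 2 and neither in 45.

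The difference at the canonical start could be small or of the other sign. At Retreg1, a receptor for the autophagy of endoplasmic reticulum, the member lay 97562 bases downstream of the canonical start and differed by −2.34 while the canonical promoter differed by −0.55. Raet1e differed by −2.57 at the member and 0.20 at the canonical start, and Gcnt1 by −2.37 and 0.40. At Rara, a retinoic acid receptor of myeloid differentiation, the member differed by −0.91 and the canonical promoter, which was stronger in HADA by the mirrored rule, by 0.16. The other such gene was Sh3bp2, an adaptor of immune receptors, with −0.69 and 0.89. Both starts were weaker at Sqor, Cfap54, Gda, Plek, Slc16a3, Fam217b and Cyth4. Which transcripts were made from either start was not measured.

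**Figure D4:**
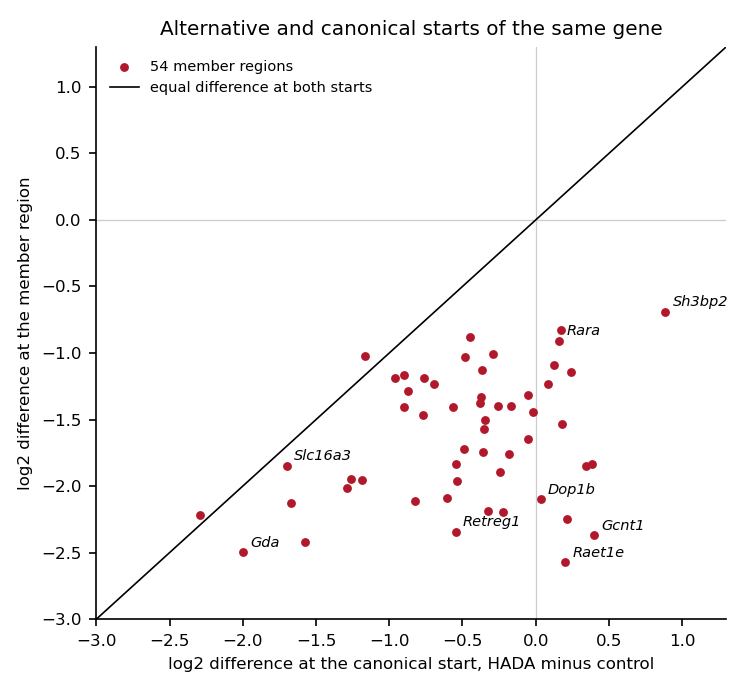
Log2 difference in median-centred pileup (HADA minus control) at the canonical start of a gene (x axis) against that at the member region at another start of the same gene (y axis), for the 54 members whose canonical start had a peak in all 6 libraries. All but 2 of the points lie under the line of equal difference, and the medians are −0.37 at the canonical start and −1.55 at the member, whose values the rule had chosen to be low.

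The sequence around the summits set the weaker promoters apart from the bulk of shared promoters. Over 250 bp on each side of the summit, the observed over expected CpG ratio had a median of 0.290, against 0.806 over all shared promoters and 0.735 over the stronger ones. A ratio under 0.4 was found at 155 (58.7%), against 10.7% of all and 16.1% of the stronger, and GC content had medians of 54.1% and 64.5%. Both kinds of start showed low ratios: 98 of the 185 members at a canonical start (53.0%) and 57 of the 79 at other starts (72.2%) were under 0.4. Of all 971 shared promoters at other starts, 45.3% were. The ratio was 0.409 at Hal, and at Sqor it was 0.0789 at the internal start and 0.650 at the canonical one. These are counts over promoters, which are not replicates of a condition, and no test was made on them.

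Motif letters were searched within 100 bp of the summit on both strands. The C/EBP letters shown above were found at 37 weaker promoters (14.0%) and at 4.34% of all shared promoters, and the AP-1 letters at 23 (8.71%) and 2.55%. PU.1 (GAGGAAGT) was found at 4.92% against 2.22%, RUNX (TGTGGTT) at 6.06% against 2.20%, and the TATA box (TATAAA) at 6.06% against 2.43%. The letters of factors of CpG-rich promoters were rarer: SP/KLF (GGGCGG) at 20.1% against 50.1%, ETS (CCGGAAGT) at 1.14% against 4.85%, and NRF1 (GCATGCGC) at 0 of 264 against 2.91%. The core of the NRF2 antioxidant response element (TGACNNNGC), whose letters can overlap with those of AP-1, was found at 8.71% against 10.4%. Among promoters with a CpG ratio under 0.4, the C/EBP shares were 15.5% of the weaker and 9.28% of all, those of AP-1 11.6% and 6.49%, and those of PU.1 8.39% and 7.98%, so these differences were smaller among CpG-poor promoters.

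**Figure D5:**
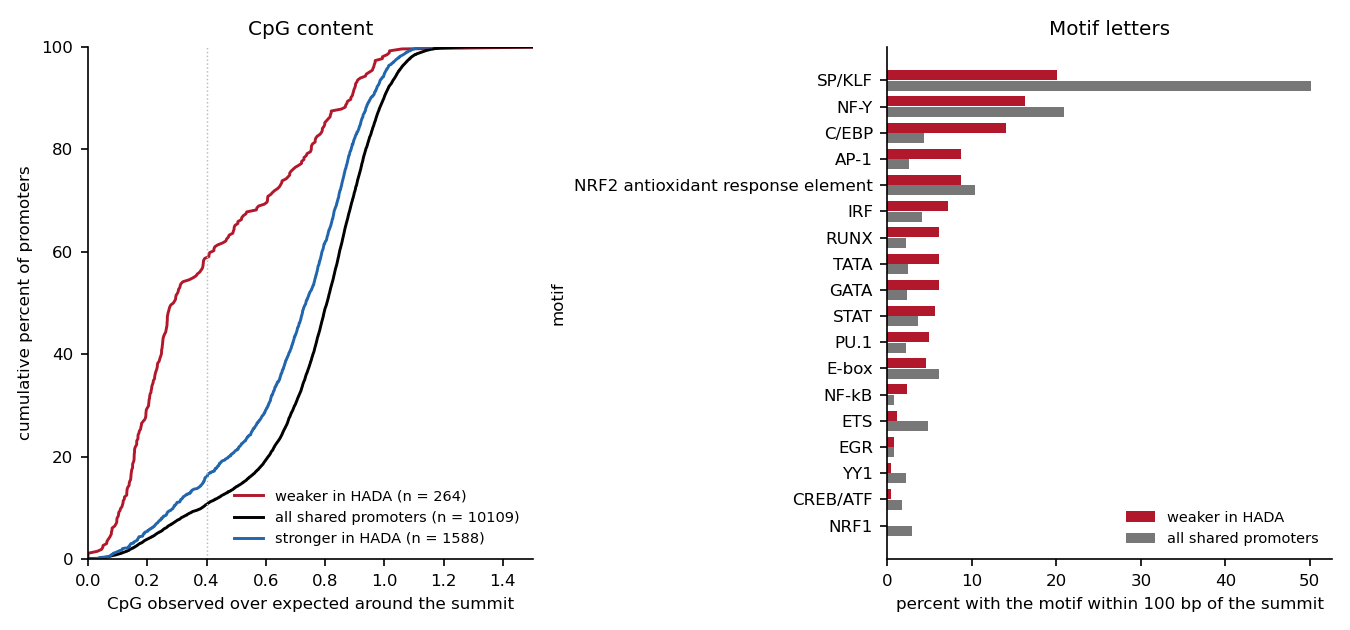
Left, cumulative percent of promoters (y axis) by the observed over expected CpG ratio in 250 bp on each side of the summit (x axis), for weaker (red), stronger (blue) and all (black) shared promoters; the red curve passes 58.7% at a ratio of 0.4, where the black curve is at 10.7%. Right, percent of weaker (red) and all (grey) shared promoters with the letters of each motif within 100 bp of the summit, with C/EBP at 14.0% against 4.34%.

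A read that matches several places cannot be assigned to any of them. The 50 bases at the summit occurred more than once in the genome at 17 members (6.44%), against 2.10% of all shared promoters. The highest numbers were 106 copies at Arnt2, 72 at Nrros, 15 at Speer1c and 11 at Nod2. Their heights may be uncertain, as may those of paralogs such as Pilrb1, Pilrb2, Sirpb1b and Fcgr3. Read pairs that reach beyond the 50 bases may still have been placed, and mapping was not examined.

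Regions near these promoters, whose own values had not entered the choice, were called weaker more often than those around all shared promoters. Within 20 kb of the weaker promoters lay 213 regions with a peak in all 6 libraries and no summit within 1 kb of a protein-coding start, and 72 of them (33.8%) met the same 5-point rule for weaker in HADA, against 14.7% of the 3917 such regions around all shared promoters. The mirrored rule was met by 10.8% and 22.0%. The median log2 difference of the nearby regions was −0.94, against −0.10 around all shared promoters and 0.17 around the stronger ones. These regions came from the same 6 libraries and were called on the same contrast, so they are not independent of the choice, and no test was made.

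Each library was also set against promoters chosen without it. With HADA 1 left out, 385 promoters met the rule in the other 5 libraries, and in HADA 1 363 of them (94.3%) had a percentile under the lowest control, where 11.0% of all shared promoters did. The same share was 97.9% for HADA 2 (background 15.3%) and 97.6% for HADA 3 (14.0%). Control libraries lay above the highest HADA percentile at 97.6% of promoters chosen without control 1 (22.1%), 88.4% without control 2 (12.4%) and 93.6% without control 3 (13.9%). The limit each library was set against had itself been used in the choice, so the share over all shared promoters is not what no difference would give, and nothing is read from these shares. With 3 libraries a group, an exact permutation test of 1 value cannot go below 0.1.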

How the data were processed

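Accessibility was measured in 3 control and 3 HADA libraries of blood leukocytes, grouped by their labels. The authors trimmed reads (Trimmomatic), aligned them (Bowtie2, GRCm39), removed duplicates (Picard) and called peaks in each library with MACS2. The options, and any shift of reads for Tn5, are not given in the sources used here, so summits are exact only to within a few bases of the cut sites. The deposited peak lists give each peak a p-value and a q-value, both as −log10, a score that was not used, and a fold enrichment, the linear ratio of its summit to the local background. Of the lists, 34128 to 45885 peaks per library were read. Read totals were not analysed here, and each percentile rests on the list of its own library, which grows with depth. Values were analysed with Python 3.11.15, numpy 2.4.6, pandas 2.3.3, scipy 1.17.1 and matplotlib 3.10.9.

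Peaks were merged where they shared 1 bp, and starts came from GENCODE protein-coding transcripts on GRCm39, the build of the lists: 0 peaks ended beyond a chromosome, and 22.4% of summits lay within 100 bp of a transcript start against 2.13% after a shift of 100 kb. The canonical start is that of the GENCODE canonical transcript. The summit pileup and its local background were solved from fold = (pileup + 1) / (background + 1) and the Poisson tail, which returned the deposited values within 0.1 for 100% of peaks. The centre for log2 pileups was the median over regions with a peak in all 6 libraries, 59, 55 and 50 fragments in control and 94, 79 and 83 in HADA. Without centring, the median shared promoter differed by 0.75 on the log2 scale. The scripts were tested on simulated peaks.

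The members, the gene lists, the motifs and the rule were chosen with earlier results of these data known. No test was made between groups at the members. Named promoters were the 15 with the largest gap, those of the 16 gene lists (301 of 306 genes matched by symbol), the 5 with the highest control percentile, those nearest the limit and those in runs of at least 3 within 100 kb; genes named at alternative starts, in receptor families and beside sequences were chosen after their values were seen. Alternatives were other scales, gaps, distances to the start, peak choices and transcripts, and leaving out each library.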

Additional observations from a re-analysis of the deposited data

How the results depend on the processing

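The values of 264 promoters, −21.2 points, a log2 difference of −1.51 and 15 promoters of listed genes depended on the scale. Percentiles of the fold gave −15.3 points, a log2 difference of −0.66 and 9 listed promoters, those of the solved pileup 25 listed promoters, and those among shared promoters 985 promoters, a log2 difference of −0.68 and 46 listed promoters. A gap of 10 points gave 133 promoters and −26.6 points, a gap of 2 points gave 444 promoters, −14.2 points and 29 listed promoters, and a summit within 3 kb of a start gave 24 listed promoters. Leaving out 1 library gave 289 to 385 promoters, −20.6 to −18.1 points, log2 differences of −1.59 to −1.23 (the last without control 3) and 15 to 25 listed promoters (the most without HADA 1). Lists of equal length gave 365 promoters, with 214 of the 264 among them. Each alternative chose its own promoters as lower in HADA, so the negative sign of these medians is fixed by the choice. By the fold, 230 of the 264 had a lower mean in HADA. Weaker and stronger inflammatory promoters, 4 and 2, became 1 and 6 by the fold, 8 and 2 by the pileup and 11 and 0 among shared promoters, those of immediate early genes, 1 and 0, became 1 and 4, 1 and 0, and 5 and 0, and those of interleukin receptors, 3 and 5, became 1 and 3, 5 and 3, and 7 and 2. No paired analysis was possible because no result came from a test, and the labels tie no number to an animal. The control libraries differed most in height at these promoters, which limits the precision of single log2 differences, and peaks of under 20 fragments, as at Sqor and Hal in HADA, lie near the limit of calling.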
